A study of Mus musculus with 25 samples.

Results

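MHC class II antigen presentation was examined in mouse liver through 7 genes, selected by gene name: H2-Aa, H2-Ab1, H2-Eb1, H2-DMa, H2-DMb1, Cd74 and Ciita. They are 7 of the 41388 genes counted, and all 7 passed the filter on low counts. The libraries came from male mice of strain C57B/6J (as the labels spell it) aged 20 weeks, all injected with the liver-tropic virus AAV8. Chow WT EV (n = 3) mice were fed chow and received the empty vector (EV). The other 4 groups were fed a Western diet (WD). They were WD WT EV (n = 6), WD WT NAMPT (n = 6), WD LKO EV (n = 5) and WD LKO NAMPT (n = 5). NAMPT, an enzyme of NAD synthesis, was expressed from a hepatocyte promoter, that of thyroxine binding globulin. WT mice were littermates that carried floxed Sirt1 alleles without Cre, and LKO mice also carried Cre under the albumin promoter, which acts in hepatocytes. Transgene and knockout were therefore aimed at hepatocytes, whereas whole liver was sequenced.

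MHC class II molecules display peptides from endocytosed proteins to CD4+ T cells. An alpha and a beta chain pair in the endoplasmic reticulum and are guided to endosomes by the invariant chain, and the DM heterodimer then exchanges the remaining invariant chain fragment for peptide. In liver the constitutive expressers are dendritic cells, B cells and many macrophages, including Kupffer cells, the resident macrophages. CIITA is the coactivator without which class II genes are hardly transcribed. It does not bind DNA itself but docks on factors assembled on the X and Y boxes of class II promoters.

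Promoter sequences were read for the X and Y boxes. Whether these motifs bear on the levels of the genes, which moved together across libraries, was not tested. RefSeq windows (GRCm38.p6) near the counted gene start were held for H2-Aa, H2-Eb1 and H2-DMb1. Both sequences below are printed 5′ to 3′ on the strand of the gene and end 15 bases before its RefSeq start. Capitals mark GNAAC, the core of the X box, and ATTGG, the Y box (an inverted CCAAT box). H2-Aa lies on the minus strand (chr17:34287839-34287963) and H2-Eb1 on the plus strand (chr17:34305727-34305851). Neither stretch touches an annotated exon.
H2-Aa: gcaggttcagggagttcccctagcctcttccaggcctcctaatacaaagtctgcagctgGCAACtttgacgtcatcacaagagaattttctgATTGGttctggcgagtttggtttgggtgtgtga
H2-Eb1: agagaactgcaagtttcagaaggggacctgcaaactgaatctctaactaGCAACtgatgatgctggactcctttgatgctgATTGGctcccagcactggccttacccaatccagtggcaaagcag
GNAAC began 81 bases before the start in H2-Aa and 91 bases before it in H2-Eb1, and ATTGG began 48 and 59 bases before it. The gap between both motifs was 28 bases in H2-Aa and 27 bases in H2-Eb1. In the H2-DMb1 window the order was the same, with GTAAC 94 and ATTGG 61 bases before the RefSeq start and a gap of 28 bases. The motifs were chosen after these sequences were seen. Over all 32851 promoter windows of 250 bases, read on both strands, 33.8% held ATTGG and 79.6% held GNAAC. A share of 4.15% held GNAAC followed by ATTGG on one strand with a gap of 10 to 40 bases. With motifs chosen in this way, these shares cannot test whether the pair marks class II genes. The pair also stood in the windows of H2-Ob, H2-Oa and H2-Eb2, class II genes with few counts in these libraries. It was absent from 2 windows listed for H2-DMa and 1 for H2-DMb2, whose RefSeq starts lie 12350, 9664 and 1942 bases from the counted gene start. A match is a description of letters and not a measured binding site.

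Total counts ran from 20166175 to 32937326 per library. Sirt1 was not lower in the libraries labelled LKO: 6 WD WT EV libraries averaged 8.86 ± 0.57 CPM (SD) and 5 WD LKO EV libraries 8.57 ± 1.34 CPM (SD), with a log2 fold change of -0.07 ± 0.10 (SE). Directions for these libraries therefore rest on their labels. Nampt counts, which may not include a transgene transcript, were 1.26-fold higher in WD WT NAMPT than in WD WT EV, with an adjusted p-value of 0.144. Replicates 2 and 6 of WD WT NAMPT stood at the 2 ends for the class II genes. Replicate 2 was the highest of all 25 libraries for each of the 7 genes, and replicate 6 ranked between 22nd and 25th. Replicate 1 of WD LKO NAMPT ranked 2nd or 3rd for each gene, apart from the other libraries of its group.

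The 7 genes covered a wide range of levels, compared here as CPM per kilobase of exon averaged over the 25 libraries. Cd74, the invariant chain, was the most abundant at 93.5. The chains of the peptide-binding molecules followed, with 39.7 for H2-Eb1, 38.1 for H2-Ab1 and 34.4 for H2-Aa. H2-DMb1 and H2-DMa, the peptide editor, reached 4.82 and 4.62, and Ciita reached 0.805. Cd74 exceeded H2-Eb1 in every library, since the H2-Eb1 to Cd74 ratio per length lay between 0.338 and 0.472. H2-Eb1, H2-Ab1 and H2-Aa could not be ordered, because the ratio of each pair ran from below 1 to above 1. The same held for H2-DMb1 and H2-DMa. Ciita was below every other member in every library, and the lowest ratio, that of H2-DMa to Ciita, was 3.55. H2-Eb1 encodes the beta chain of I-E. Its alpha chain gene is not expressed in the H2b haplotype of C57BL/6 mice, and H2-Ea-ps, the annotated pseudogene, had 0 counts in 24 of 25 libraries and at most 2.

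**Figure D1:**
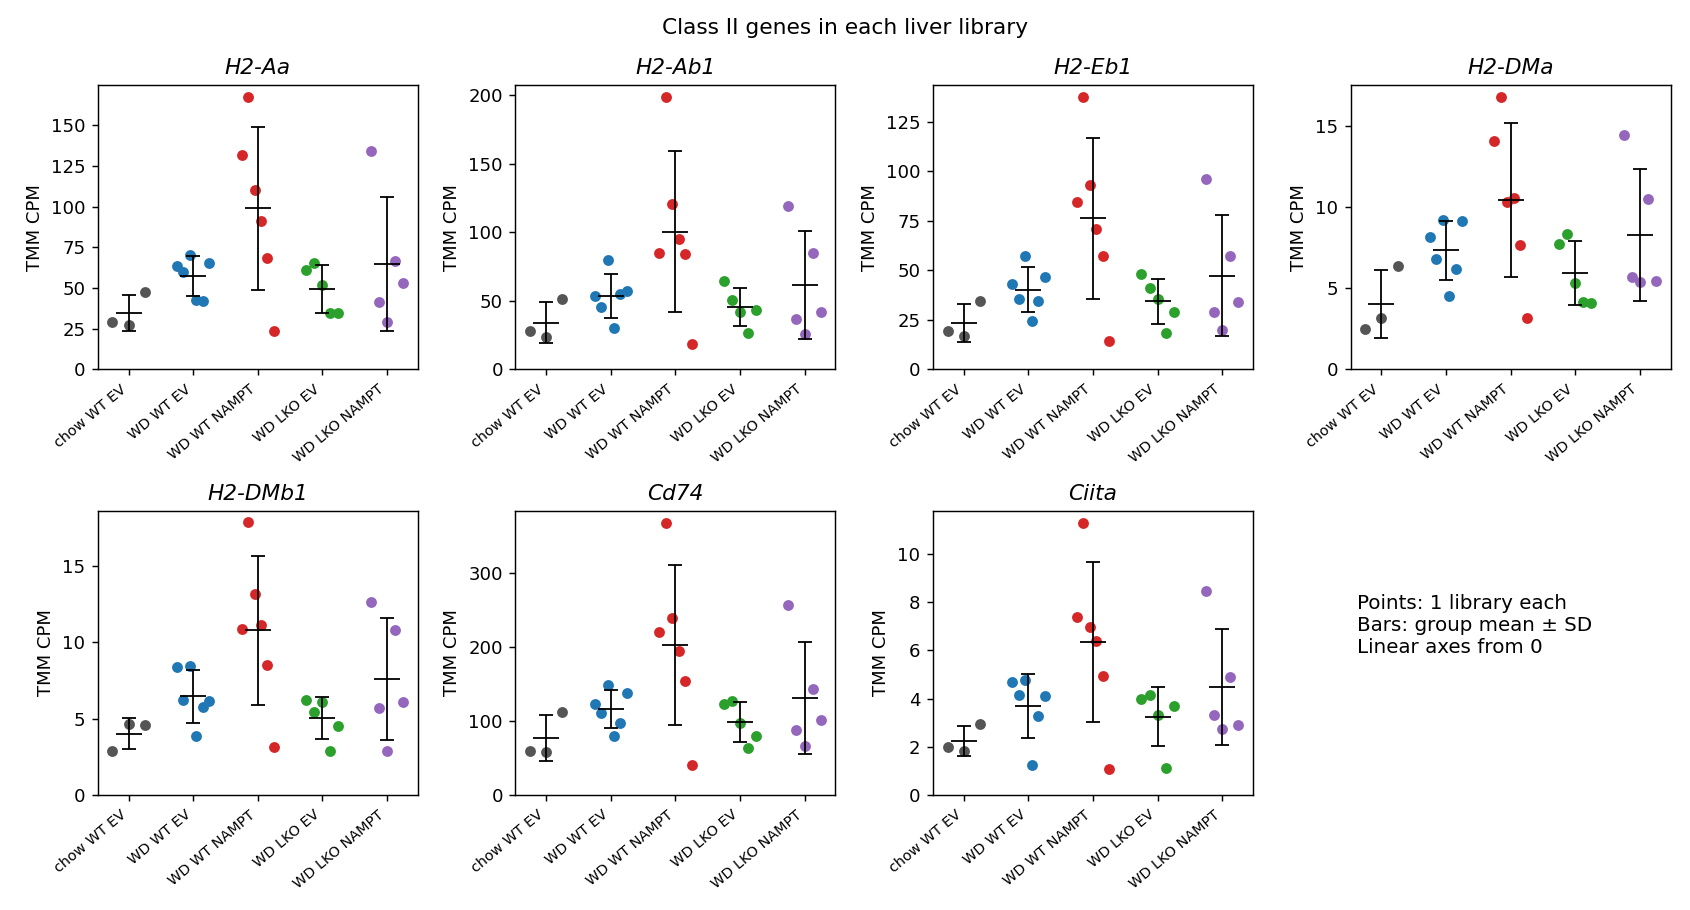
Level of each class II gene (TMM-normalised CPM, linear axes from 0) in each of the 25 libraries, with points for libraries and bars for group mean ± SD. WD WT NAMPT held both the highest library (replicate 2) and one near the bottom of the range (replicate 6), and its 6 values spread from 40.4 to 368 CPM for Cd74.

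The comparison of WD WT NAMPT with WD WT EV asked what hepatocyte NAMPT did on the Western diet. All 7 fitted differences were positive, but only H2-DMb1, the beta chain of the peptide editor, passed the limma test with Benjamini-Hochberg adjustment over all genes. That is 1 of 7 members, beside 13.4% of all 14065 genes tested. The median log2 fold change of the members was 0.82, and that of all genes was 0.00 (0.0041). The members' adjusted p-values reached up to 0.166, and 6 of 7 had an unadjusted p under 0.05, as had 30.3% of all genes.

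H2-DMb1 ranged in WD WT EV from 3.85 through a median of 6.17 to 8.45 CPM. In WD WT NAMPT it ranged from 3.12 through a median of 11 to 17.9 CPM. The log2 fold change was 0.82 ± 0.26 (SE, 1.77-fold, adjusted p = 0.0384). In WD WT NAMPT, 5 of 6 libraries lay above every WD WT EV library, and replicate 6 lay below all of them. H2-DMb1 and its close relative H2-DMb2 may share reads, and how the counting split them was not tested.

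H2-DMa, the alpha chain of the editor, had a median of 7.47 CPM (4.54 to 9.18) in WD WT EV and of 10.4 CPM (3.18 to 16.8) in WD WT NAMPT. Its log2 fold change was 0.52 ± 0.25 (SE, adjusted p = 0.166). The alpha chain and beta chain of DM thus gave the smallest value of the list and the only one that passed. A difference between both chains was not tested.

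Of the classical chains, both beta chains had larger fitted values than H2-DMb1 and the alpha chain a smaller one, all with larger errors. H2-Ab1, the I-A beta chain, ran from 30.4 through 53.9 to 79.8 CPM in WD WT EV (lowest, median, highest), and from 18.8 through 90.1 to 198 CPM in WD WT NAMPT. The fitted log2 difference was 0.90 ± 0.32 (SE, adjusted p = 0.0593). H2-Aa, the I-A alpha chain, ran from 41.9 through 61.7 to 70.1 CPM in WD WT EV and from 23.9 through 100.8 to 168 CPM in WD WT NAMPT. It differed by 0.68 ± 0.27 on the log2 scale (SE, adjusted p = 0.0926). H2-Eb1 ran from 24.2 through 39.3 to 57.0 CPM and from 14.3 through 77.6 to 137 CPM. Its log2 fold change was 0.90 ± 0.31 (SE, adjusted p = 0.0537). For each of these 3 genes replicate 6 of WD WT NAMPT lay below all WD WT EV libraries, so the groups overlapped in spite of medians that were well apart.

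Cd74 ran from 79.5 through 117 to 149 CPM in WD WT EV and from 40.4 through 208 to 368 CPM in WD WT NAMPT, with 5 of 6 libraries above all WD WT EV libraries. Its fitted log2 difference was 0.74 ± 0.28 (SE, adjusted p = 0.0769). Ciita, the coactivator, ran from 1.24 through 4.13 to 4.78 CPM and from 1.08 through 6.69 to 11.3 CPM, again with 5 of 6 libraries above and 1 below. The fitted log2 difference was 0.83 ± 0.34 (SE, adjusted p = 0.0982). Ciita was thinly counted, with 20 to 479 counts per library.

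The number of members that passed depended on single libraries and on the tool. Without WD WT NAMPT replicate 6 it was 6 of 7, and without replicate 5 it was 5, while the share of all genes called rose to 20.2% and 19.9%. Without replicate 1, 2 or 3 of WD WT NAMPT, or without replicate 2, 6, 7 or 8 of WD WT EV, it was 0, and the share of all genes lay between 0.938% (without WD WT NAMPT replicate 3) and 11.8%. Without replicate 1 or replicate 4 of WD WT EV it was 2 and 3, beside 15.5% and 17.4% of all genes. The edgeR quasi-likelihood test and DESeq2 called 0 members, with members' lowest adjusted p-values of 0.145 and 0.126, and they called 3.04% and 8.49% of all genes. The limma fit gave replicates 2 and 6 of WD WT NAMPT the low quality weights 0.401 and 0.336, and without such weights 0 members and 1.37% of all genes passed. With 2 surrogate variables, estimated from the data, the direction turned: the members' median was -0.034, 5 of 7 estimates were negative and 0 members passed.

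**Figure D2:**
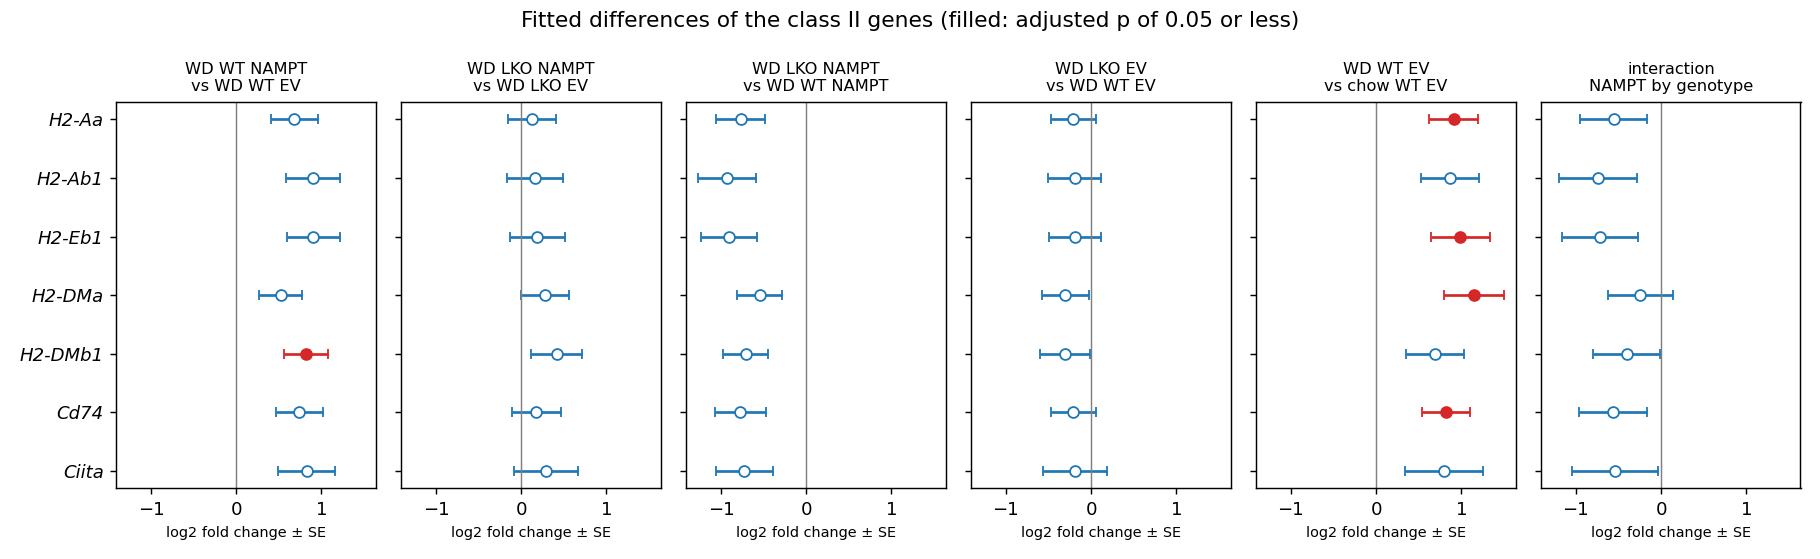
Fitted log2 fold change ± SE of each class II gene in the 5 comparisons and for the interaction, with filled symbols where the adjusted p-value was 0.05 or less. Filled symbols stand at H2-DMb1 for NAMPT in WT and at H2-Aa, H2-Eb1, H2-DMa and Cd74 for Western diet against chow. The comparisons share groups and are not independent.

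In the libraries labelled LKO, NAMPT gave no call among the members. None of the 7 members passed the limma test between WD LKO NAMPT and WD LKO EV, beside 0.00711% of all genes called (1 gene). The number of members with an unadjusted p under 0.05 was 0, beside 9.63% of all genes. The log2 fold changes lay between 0.13 for H2-Aa and 0.42 for H2-DMb1, with a median of 0.19. The size depended on the fit, as the median was 0.46 in both the edgeR quasi-likelihood test and DESeq2 and 0.43 with 2 surrogate variables, again with 0 members called. Cd74 stood at 124, 127, 97.4, 64.2 and 80.3 CPM in WD LKO EV and at 257, 88.7, 66.8, 144 and 101 CPM in WD LKO NAMPT. Only replicates 1 and 4 of WD LKO NAMPT lay above all WD LKO EV libraries, and the other 3 overlapped them. Ciita stood at 3.98, 4.16, 3.32, 1.12 and 3.71 CPM in WD LKO EV and at 8.48, 3.32, 2.75, 4.91 and 2.92 CPM in WD LKO NAMPT, the same 2 libraries being high. Its log2 fold change was 0.29 ± 0.38 (SE).

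The interaction term, which is the LKO value for NAMPT minus the WT value, asked whether the 2 effects differed. All 7 estimates were negative, from -0.24 for H2-DMa to -0.74 for H2-Ab1, and their standard errors ran from 0.38 for H2-DMa to 0.51 for Ciita. No member passed, beside 0.00711% of all genes, and the lowest adjusted p-value in the limma fit was 0.354. The number of members with an unadjusted p under 0.05 was 0, beside 21.2% of all genes. The edgeR quasi-likelihood test called 0 members too, and DESeq2 gave the members no adjusted p-value for this term. With 2 surrogate variables all 7 estimates were positive, from 0.32 to 0.64, and 0 passed. A different effect of NAMPT in the 2 genotypes was not shown for any member.

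WD LKO NAMPT and WD WT NAMPT were also compared directly. All 7 fitted differences were negative, with a median log2 fold change of -0.77, but none passed the limma test, beside 7.96% of all genes. Each of the 7 had an unadjusted p under 0.05, as had 28.6% of all genes, and the lowest adjusted p-value was 0.0775, for H2-Ab1. H2-Ab1 stood at 119, 36.5, 25.8, 84.7 and 41.6 CPM in WD LKO NAMPT, inside the range of 18.8 to 198 CPM in WD WT NAMPT. On the log2 scale the difference was -0.93 ± 0.34 (SE). Single libraries decided this count as well, and that of all genes with it. Without WD WT NAMPT replicate 6 it was 6 (16.3% of all genes), without WD LKO NAMPT replicate 1 it was 5 (16.1%), and without WD WT NAMPT replicate 5 or WD LKO NAMPT replicate 4 it was 3 (13.9% and 12.9%). Without replicate 2 or 5 of WD LKO NAMPT at most 2 of all 14065 genes passed the limma test. With 2 surrogate variables 6 of 7 estimates were positive, the median was 0.11 and 0 members passed.

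With the empty vector, WD LKO EV and WD WT EV were close. None of the 7 members passed, beside 0.00711% of all genes, and 0 had an unadjusted p under 0.05, beside 6.33% of all genes. The log2 fold changes lay between -0.31 for H2-DMb1 and -0.19 for H2-Eb1, each within about 1 SE of 0. H2-DMa, as an example, stood at 7.73, 8.32, 5.34, 4.14 and 4.11 CPM in WD LKO EV, against 4.54 to 9.18 CPM in WD WT EV. Of these 5 libraries, 2 lay below all WD WT EV libraries and none lay above. An approximate 95% interval around its log2 fold change of -0.30 ran from -0.84 to 0.24, so a moderately lower level in LKO was not detectable at this precision. The edgeR quasi-likelihood test and DESeq2 also called 0 members here, for NAMPT in LKO and between both NAMPT groups.

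The Western diet comparison, WD WT EV against chow WT EV, gave the most calls among the members. H2-Aa, H2-Eb1, H2-DMa and Cd74 rose, 4 of 7 members, beside 22% of all genes called. The other 3 members also had positive estimates, and the median log2 fold change was 0.87, against 0.00 (-0.0047) for all genes. With 2 surrogate variables in the limma fit the members' median fell to 0.15 and 0 members passed, while 3270 genes did. Chow WT EV had 3 libraries, so each carries much of this comparison.

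Cd74 stood at 60.3, 58.5 and 112 CPM in the chow libraries and ran from 79.5 through 117 to 149 CPM in WD WT EV. Chow replicates 1 and 2 lay below every WD WT EV library and replicate 3 lay among them. The log2 fold change was 0.82 ± 0.28 (SE, 1.77-fold, adjusted p = 0.0372). H2-Aa stood at 29.1, 27.6 and 47.6 CPM on chow and ran from 41.9 to 70.1 CPM in WD WT EV. Its log2 fold change was 0.91 ± 0.29 (SE, 1.88-fold, adjusted p = 0.0259). H2-Eb1 stood at 19.1, 16.6 and 34.3 CPM on chow, against 24.2 to 57.0 CPM, with a fitted log2 difference of 0.99 ± 0.35 (SE, adjusted p = 0.0433). H2-Ab1 stood at 28.1, 23.4 and 50.9 CPM on chow, with a fitted log2 difference of 0.87 ± 0.34 (SE, adjusted p = 0.0684). In each of these genes replicate 3 was the highest chow library.

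The DM chains again differed in call. H2-DMa stood at 2.48, 3.16 and 6.39 CPM on chow and had the largest fitted value of the list, 1.15 ± 0.35 on the log2 scale (SE, 2.21-fold, adjusted p = 0.0219). H2-DMb1 stood at 2.85, 4.63 and 4.58 CPM on chow, with a fitted log2 difference of 0.69 ± 0.34 (SE, adjusted p = 0.150). Ciita stood at 1.99, 1.83 and 2.96 CPM on chow. In WD WT EV, 5 of 6 libraries lay above all chow libraries, between 3.26 and 4.78 CPM, and replicate 6 lay below them at 1.24 CPM. The fitted log2 difference was 0.80 ± 0.46 (SE, adjusted p = 0.219).

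Without chow replicate 1 or chow replicate 2 the number of members that passed fell from 4 to 0, while the share of all genes called fell to 6.77% and 5.99%. Without replicate 1, 4 or 8 of WD WT EV it was 2, beside 17.8%, 18.9% and 22.5% of all genes. The fit weighted chow replicates 1 and 2, the low ones, by 1.81 and 2.5, and replicate 3 by 0.608. Without such weights 0 members and 8.54% of all genes passed, and the median log2 fold change was 0.67. The edgeR quasi-likelihood test and DESeq2 called 0 members, with medians of 0.71 and 0.72, and 9.4% and 12.4% of all genes. Both NAMPT in WT and the diet comparison use the WD WT EV libraries, so their values are not independent.

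Other genes of the pathway were taken from lists made up by function. Among other class II genes, H2-DMb2 and H2-Ob were kept and neither passed in any comparison. H2-Ob, a chain of the DM inhibitor DO, had a log2 fold change of 0.86 ± 0.36 (SE) for NAMPT in WT and of -0.29 ± 0.42 (SE) for the diet. H2-Oa, its partner chain, had at most 13 counts per library and was not tested.

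Endosomal antigen processing, the proteases and the reductase that prepare peptides, had 6 genes, all kept. With NAMPT in WT, 3 of 6 rose and none fell, beside 13.4% of all genes called, with a median log2 fold change of 0.50. These were Ifi30, a lysosomal thiol reductase, at 0.86 ± 0.19 (SE, adjusted p = 0.0111), Ctss, the protease that trims the invariant chain in antigen-presenting cells, at 0.86 ± 0.22 (SE), and Lgmn, an asparaginyl endopeptidase, at 0.69 ± 0.15 (SE). For the diet 4 of 6 rose, beside 22% of all genes called, led by Ctss at 0.71 ± 0.24 (SE) and Lgmn at 0.60 ± 0.16 (SE), and with Ctsd and Ctsb, both lysosomal cathepsins of most cells, at 0.51 ± 0.12 (SE) and 0.34 ± 0.11 (SE). Ifi30 and Lgmn were lower in WD LKO NAMPT than in WD WT NAMPT, at -0.70 ± 0.20 (SE) and -0.54 ± 0.16 (SE) on the log2 scale. That is 2 of 6, beside 7.96% of all genes called, and the list's median was -0.36. No gene of the list passed for NAMPT in LKO, for LKO EV against WT EV or for the interaction, each with 0.00711% of all genes called.

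The promoter complex (the RFX, NF-Y and CREB subunits) had 7 genes kept, with medians of 0.04 for NAMPT in WT and -0.04 for the diet. Nfya, the sequence-recognising subunit of NF-Y, rose with NAMPT in WT by 0.42 ± 0.09 (SE) on the log2 scale. That is 1 of 7 genes, near the 13.4% of all genes. Nfya was also lower in WD LKO NAMPT than in WD WT NAMPT, at -0.43 ± 0.09 (SE), 1 of 7 beside 7.96% of all genes. Creb1 fell with the diet, at -0.36 ± 0.12 (SE), which is 1 of 7 and below the 22% of all genes. The other subunits did not pass in these 3 comparisons.

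Of the interferon gamma route to Ciita, 8 of 9 genes were kept. Ifng itself had 0 counts in 17 of 25 libraries and at most 6. For NAMPT in WT 3 of 8 rose, beside 13.4% of all genes called, the receptor chains Ifngr1 at 0.57 ± 0.15 (SE) and Ifngr2 at 0.33 ± 0.10 (SE) and the feedback inhibitor Socs1 at 1.06 ± 0.34 (SE), and the median was 0.38. For the diet, 2 of 8 rose, a share near the 22% of all genes, Irf2 at 0.41 ± 0.13 (SE) and Ifngr2 at 0.38 ± 0.11 (SE). Ifngr1 and Socs1 were lower in WD LKO NAMPT than in WD WT NAMPT, at -0.52 ± 0.15 (SE) and -1.31 ± 0.37 (SE). That is 2 of 8, beside 7.96% of all genes called.

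Of the genes for class II turnover and costimulation, 5 were kept, and 2 of 5 rose with NAMPT in WT, beside 13.4% of all genes called. Cd40 and Cd83, costimulatory surface proteins of antigen-presenting cells, rose by 2.42 ± 0.61 (SE) and 1.12 ± 0.34 (SE) on the log2 scale. None of the list passed for the diet or between the NAMPT groups, beside 22% and 7.96% of all genes. Cd40 was near the lower limit, at a mean of 0.455 CPM in WD WT EV and 1.70 CPM in WD WT NAMPT. Class I presentation, which most cells carry out, had 11 genes with a median of 0.36 for NAMPT in WT, and 1 of 11, the immunoproteasome subunit Psmb9, rose, at 0.67 ± 0.22 (SE), a share below the 13.4% of all genes. For the diet its median was 0.21, and Psmb8 and H2-K1 rose, at 0.69 ± 0.23 (SE) and 0.30 ± 0.09 (SE), which is 2 of 11 and below the 22% of all genes. Erap1, an aminopeptidase that trims class I peptides, was higher in WD LKO NAMPT than in WD WT NAMPT, at 0.36 ± 0.10 (SE). That is 1 of 11, near the 7.96% of all genes.

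Cell type markers were read beside the members, since whole liver was sequenced. In such bulk samples fewer cells of a type and less RNA per cell cannot be told apart. With NAMPT in WT, beside 13.4% of all genes called, 4 of 4 leukocyte markers rose, Coro1a by 1.30 ± 0.25 (SE) on the log2 scale, Ptprc by 0.94 ± 0.24, Cd53 by 0.90 ± 0.27 and Laptm5 by 0.89 ± 0.23. Of the Kupffer cell markers 6 of 10 rose, led by Marco, a scavenger receptor, at 2.79 ± 0.76 (SE), Adgre1 at 0.91 ± 0.23, Cd5l at 0.91 ± 0.23 and the complement gene C1qc at 0.76 ± 0.18. Marco varied widely, at 15.75 ± 15.44 CPM (SD) in WD WT NAMPT. Kupffer cell markers that did not pass were Timd4 at 0.66 ± 0.25 (SE), Vsig4 at 0.36 ± 0.23, Clec4f at 0.31 ± 0.13 and Folr2 at 0.18 ± 0.15. Among markers of recruited macrophages and monocytes 5 of 9 rose, led by Trem2 at 1.92 ± 0.54 (SE), Cx3cr1 at 1.87 ± 0.49, Itgam at 1.87 ± 0.43 and Lyz2 at 1.14 ± 0.26. Conventional dendritic cell markers rose in 3 of 8 cases, Itgax at 2.11 ± 0.55 (SE), Flt3 at 1.88 ± 0.55 and Wdfy4 at 0.53 ± 0.17. Flt3 was near the lower limit, at a mean of 0.418 CPM in WD WT EV and 0.869 CPM in WD WT NAMPT. Those that did not pass were Clec9a at 0.66 ± 0.29 (SE), Cd209a at 0.05 ± 0.57, Zbtb46 at -0.03 ± 0.11, Cd24a at -0.03 ± 0.19 and Xcr1 at -0.04 ± 0.29. For neutrophils it was 2 of 4, S100a9 at 1.57 ± 0.48 (SE) and Csf3r at 1.28 ± 0.30. Stellate cell markers rose in 2 of 5 cases, Des at 0.66 ± 0.16 (SE) and Pdgfrb at 0.57 ± 0.14, while of 5 endothelial markers Pecam1 rose by 0.36 ± 0.11 (SE) and Clec4g fell, at -0.40 ± 0.11. None of the 3 B cell, 4 T cell, 4 cholangiocyte and 6 hepatocyte markers kept passed. Cd3d, a defining T cell marker, had 2 to 27 counts per library.

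For the diet, where 22% of all genes were called, fewer markers passed. They were 1 of 4 for leukocytes, 2 of 9 for recruited macrophages, 1 of 8 for conventional dendritic cells and 1 of 5 for stellate cells, all shares near or below that of all genes, and 4 of 10 for Kupffer cells. Laptm5 rose by 0.85 ± 0.26 (SE), Ly6c2 and Cd68 of recruited macrophages by 1.45 ± 0.53 and 0.80 ± 0.28, Wdfy4 by 0.93 ± 0.22 and Lrat of stellate cells by 0.54 ± 0.11. The Kupffer cell markers that rose were Cd5l at 1.06 ± 0.22 (SE), Folr2 at 0.78 ± 0.18, C1qb at 0.74 ± 0.20 and C1qc at 0.51 ± 0.18. Of 5 endothelial markers Lyve1 rose, at 1.13 ± 0.30 (SE), and Kdr fell, at -0.20 ± 0.07. Cd79b of B cells fell, at -0.79 ± 0.28 (SE), as did 1 of 6 hepatocyte markers, Tat, a liver aminotransferase, at -0.95 ± 0.21.

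Between WD LKO NAMPT and WD WT NAMPT, beside 7.96% of all genes called, 3 of 4 leukocyte markers were lower, Coro1a at -1.01 ± 0.25 (SE), Ptprc at -0.87 ± 0.25 and Laptm5 at -0.80 ± 0.24. Lower too were 1 of 10 Kupffer cell markers, Marco at -2.14 ± 0.67 (SE), and 2 of 9 of recruited macrophages, Itgam at -1.27 ± 0.39 and Lyz2 at -1.05 ± 0.28. The same held for 1 marker each of neutrophils (Csf3r, -1.31 ± 0.31), cholangiocytes (Sox9, -1.45 ± 0.38), stellate cells (Pdgfrb, -0.61 ± 0.14) and hepatocytes (Tat, -0.74 ± 0.21). No marker of any list passed for NAMPT in LKO, for LKO EV against WT EV or for the interaction. In each of these, 0.00711% of all genes (1 gene) passed. None of the plasmacytoid dendritic cell and NK cell markers kept passed in any comparison. Hepatocyte markers gave medians of -0.14 for NAMPT in WT, -0.22 for the diet and 0.13 between the NAMPT groups.

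**Figure D3:**
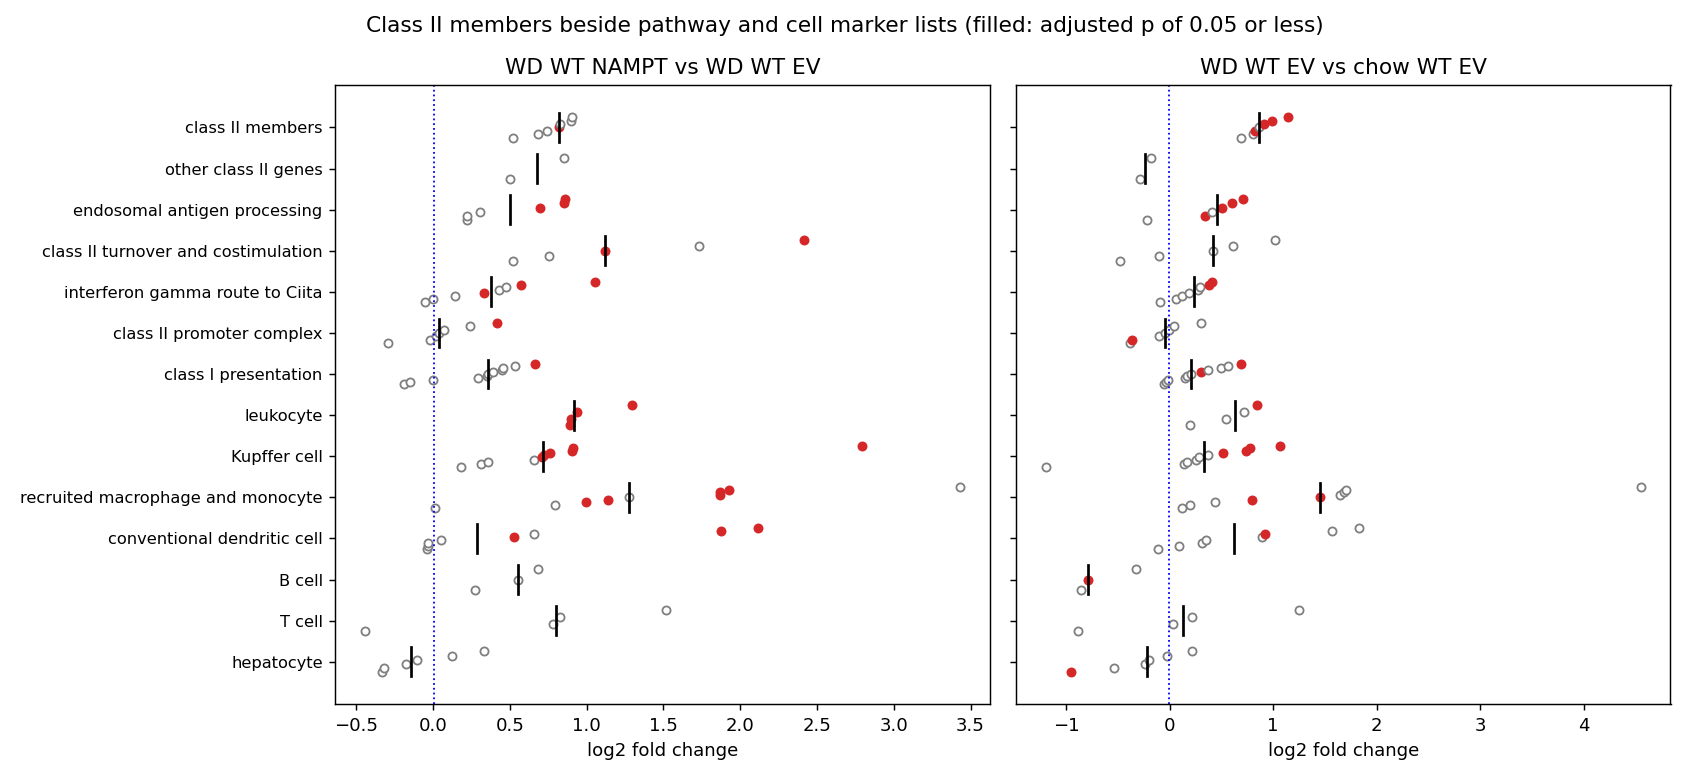
Log2 fold change of each kept gene in the class II members, the pathway lists and the marker lists (points, filled where the adjusted p-value was 0.05 or less), with black bars for list medians and a dotted line for the median of all genes. For NAMPT in WT the members' median of 0.82 lay beside a leukocyte marker median of 0.92 and a promoter complex median of 0.04.

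The summed level of the 4 leukocyte markers moved with that of the members from library to library. The member sum ran from 136 through 144 to 259 CPM in chow WT EV (lowest, median, highest) and from 186 through 286 to 379 CPM in WD WT EV. In WD WT NAMPT it ran from 105 through 517 to 918 CPM, in WD LKO EV from 151 through 242 to 315 CPM, and in WD LKO NAMPT from 152 through 245 to 642 CPM. The leukocyte sum ran from 38.1 to 51.1, 44.9 to 86.4, 37.2 to 202, 48.0 to 81.5 and 55.4 to 133 CPM in the same order of groups. Its lowest and highest libraries were again replicates 6 and 2 of WD WT NAMPT. The Kupffer cell sum ran from 300.3 to 378, 382 to 551, 357 to 1039, 415 to 531 and 371 to 857 CPM.

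Per unit of leukocyte marker, the member sum overlapped between all 5 groups. Abundant genes weigh most in both sums. In WD WT EV the leukocyte sum averaged 66.7 CPM, with Laptm5 at 33.0 CPM. The member sum averaged 285 CPM there, with H2-DMa, H2-DMb1 and Ciita at only 7.33, 6.46 and 3.71 CPM. For these 3 members the ratio therefore says little. The ratio ran from 2.97 to 5.07 in chow WT EV, 3.62 to 5.42 in WD WT EV, 2.82 to 4.53 in WD WT NAMPT, 3.01 to 4.31 in WD LKO EV and 2.75 to 5.48 in WD LKO NAMPT, with medians of 3.56, 4.10, 3.78, 3.57 and 3.29. The member sum itself differed 8.76-fold between its lowest and highest libraries, and the ratio 1.99-fold. The part of leukocyte number in the differences above was not tested.

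**Figure D4:**
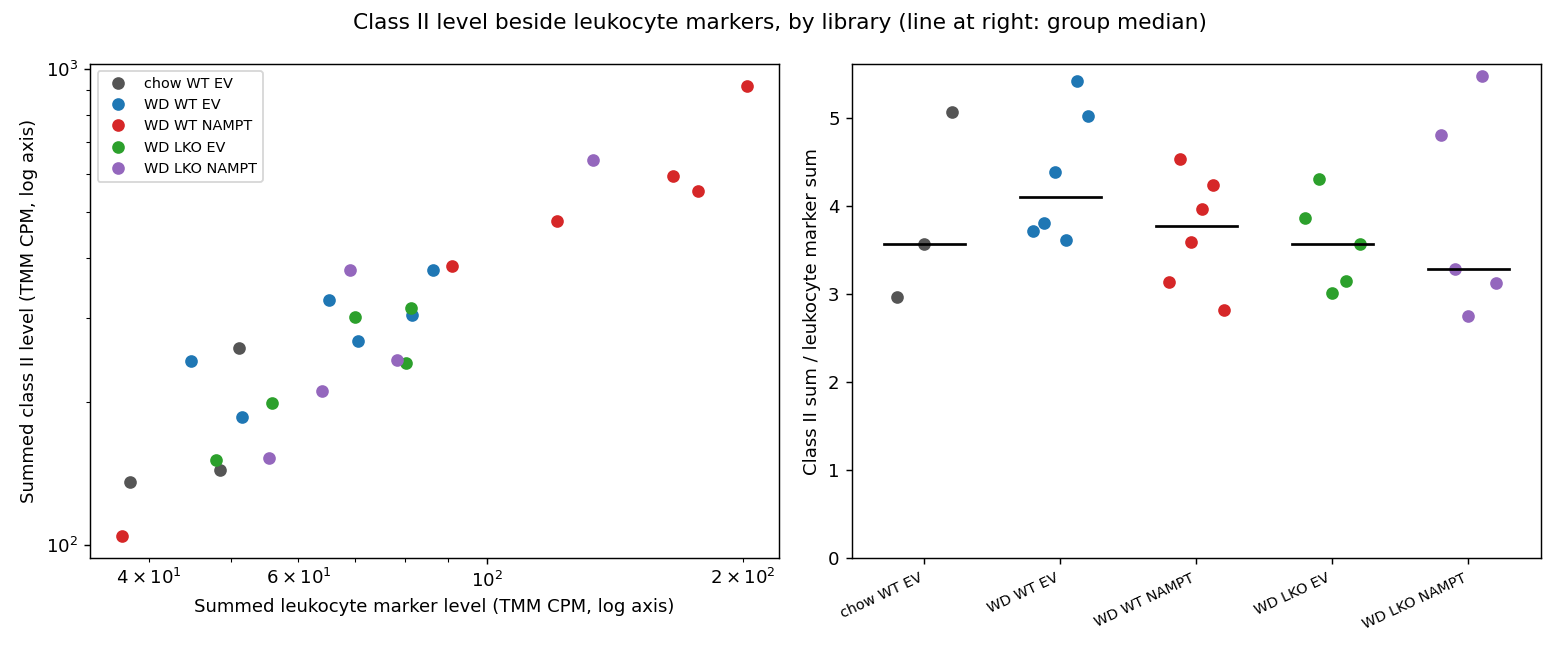
Left, summed level of the 7 class II genes against that of 4 leukocyte markers in each library (TMM CPM, both axes logarithmic); right, their ratio by group on a linear axis from 0, with lines at group medians. Replicates 6 and 2 of WD WT NAMPT lie at the lower and upper ends of both sums, and the ratios of all groups overlap between 2.75 and 5.48.

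The members were closely tied to each other within groups. Deviations from group means of log2(CPM + 0.5) gave Pearson correlations from 0.864 for H2-DMa with H2-DMb1 to 0.990 for H2-Eb1 with Cd74 over the 25 libraries. Ciita was examined against each of the other 6 members, since it is the coactivator they depend on. Pearson's r was 0.880 with H2-Aa, 0.918 with H2-Ab1, 0.934 with H2-Eb1, 0.886 with H2-DMa, 0.895 with H2-DMb1 and 0.923 with Cd74. Spearman's rho ran from 0.806 with H2-DMb1 to 0.905 with Cd74. In a two-sided permutation test within groups, with 100000 resamples, each p was 1e-05 for r and for rho, the smallest these permutations can give, and 1e-05 after Benjamini-Hochberg adjustment over the 6 relations. Without the 2 libraries farthest from the median of Ciita by their deviation from the group mean (WD WT NAMPT replicate 6 and WD WT EV replicate 6), r ran from 0.824 with H2-DMa to 0.908 with H2-Eb1. The libraries also share their leukocyte marker level, and labels give no batch within which to repeat the test.

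Likeness was not limited to class II genes. Among 14058 other genes kept, 77 correlated with the members' mean standardised deviation at r above 0.9 and 477 above 0.8, while 260 lay below -0.8, down to -0.934, and the median gene had r = -0.02. The 10 most alike were Tifab (r = 0.965), Gngt2 (0.957), Pld4 (0.952), Unc93b1 (0.950), Slc15a3 (0.946), Coro1a (0.946), Pkm (0.945), Slc7a8 (0.944), Csf2ra (0.944) and Bin2 (0.943). Unc93b1 is the chaperone of endosomal Toll-like receptors, Csf2ra is a chain of the GM-CSF receptor, and Pkm is a pyruvate kinase. Pkm had a mean of 26.4 CPM in WD WT EV and 51.1 CPM in WD WT NAMPT. Of the pathway lists, Ctss ranked highest at 45th with r = 0.915. The members themselves gave 0.948 to 0.995 on a measure that includes them. These correlations are taken over the same 25 libraries and are given as a description, with no test.

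The ratio of the I-A chain genes varied between libraries. Per length, H2-Ab1 to H2-Aa ran from 0.736 in WD WT NAMPT replicate 1 to 1.49 in WD WT EV replicate 7, with a median of 1.01. The range was 0.971 to 1.22 in the 3 chow WT EV libraries, and wider in the other groups, with values of 0.819 to 1.49 in WD WT EV, 0.736 to 1.41 in WD WT NAMPT, 0.873 to 1.45 in WD LKO EV and 0.895 to 1.46 in WD LKO NAMPT. The SD of the log2 ratio over the 25 libraries was 0.29 for this pair, inside the range of 0.14 (Cd74 with H2-Aa, and H2-Eb1 with H2-Ab1 or Cd74) to 0.40 (Ciita with H2-Aa or H2-DMa) over all 21 pairs of members. Both genes lie next to each other on chromosome 17, and no source for the variation was tested.

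Of the 7 members, 5 lie in one segment of chromosome 17, from 34135182 to 34316199 (GRCm38), which spans 181 kb. H2-DMa (34135182 to 34139101), H2-DMb1 (34153072 to 34160230), H2-Ab1 (34263209 to 34269418) and H2-Eb1 (34305877 to 34316199) lie on the plus strand and H2-Aa (34282744 to 34287827) on the minus strand. Ciita lies on chromosome 16 from 10488178 to 10527564 and shares 111 exonic bases with Dexi of the other strand. Between the outermost members the segment held 15 genes, of which 11 were kept. The 6 kept genes that are not members were H2-DMb2, Psmb9, Tap1, Psmb8, Tap2 and H2-Ob. For NAMPT in WT their log2 fold changes ran from 0.35 for Tap1 to 0.86 for H2-Ob, and 1 of 6 (Psmb9) passed, near the 13.4% of all genes. For the diet they ran from -0.29 for H2-Ob to 0.69 for Psmb8, and 1 of 6 (Psmb8) passed, near the 22% of all genes. H2-DMb2 and H2-Ob, which lie between members, thus had negative diet estimates where the 5 members around them had positive ones, but neither passed and the difference was not tested.

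**Figure D5:**
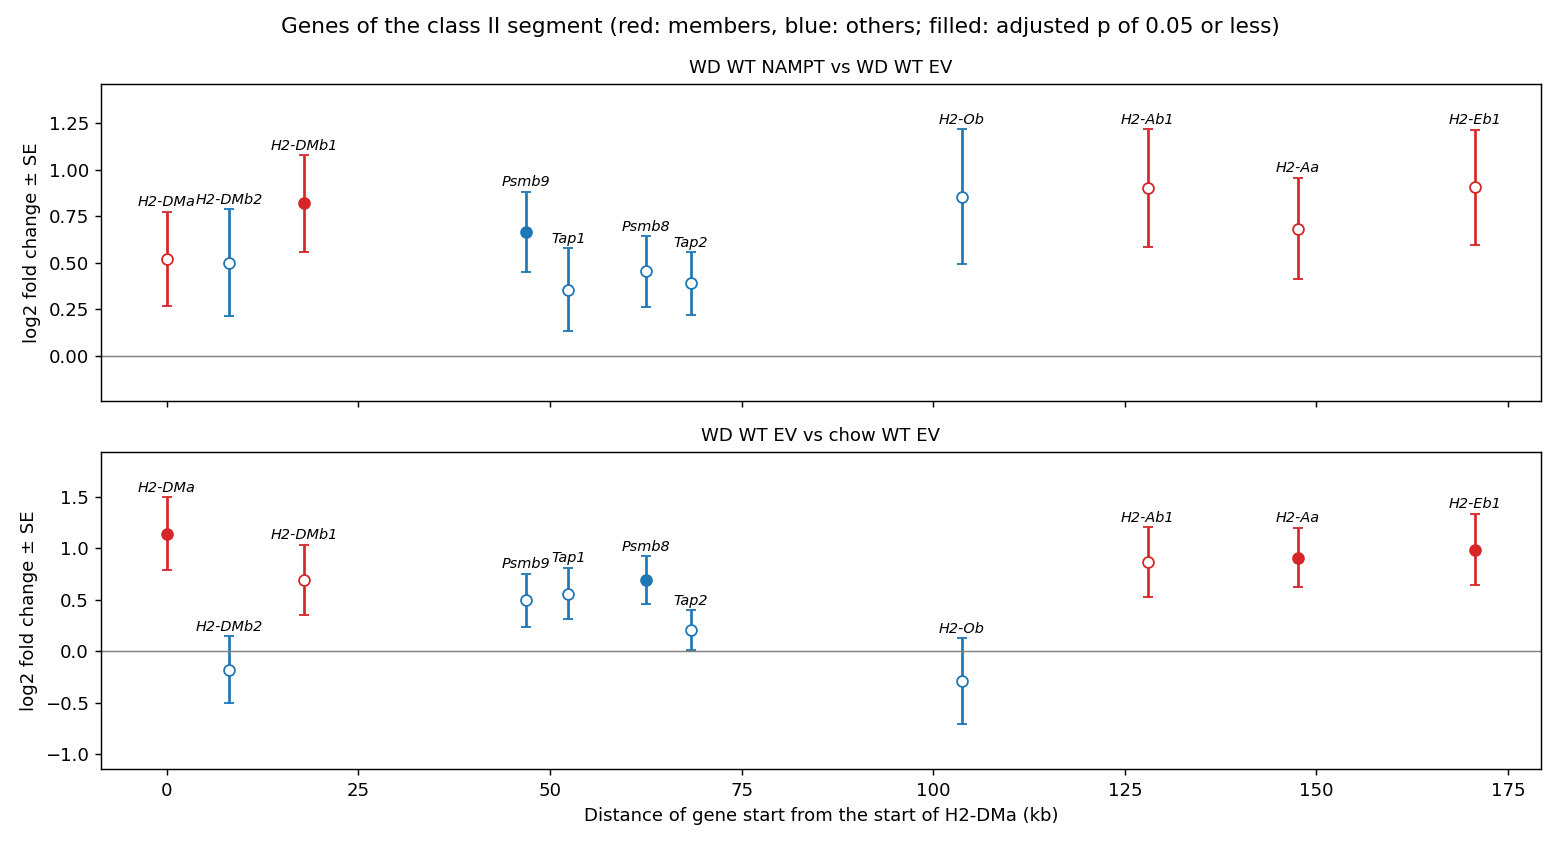
Log2 fold change ± SE of the 11 kept genes of the chromosome 17 segment by distance of their start from that of H2-DMa (kb), for NAMPT in WT (top) and the diet (bottom), with members in red, others in blue, and filled symbols where the adjusted p-value was 0.05 or less. All 11 values at the top are positive, and at the bottom only those of H2-DMb2 and H2-Ob are negative.

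Cd74 (ENSMUSG00000024610) lies on chromosome 18 from 60803848 to 60812646 on the plus strand (GRCm38) and shares 12 exonic bases with the microRNA gene Mir5107. Chow WT EV (n = 3) averaged 77.1 ± 30.6 CPM (SD), WD WT EV (n = 6) 116 ± 26 CPM, WD WT NAMPT (n = 6) 203 ± 108 CPM, WD LKO EV (n = 5) 98.5 ± 27.1 CPM and WD LKO NAMPT (n = 5) 132 ± 75.5 CPM. In order of mean, WD WT NAMPT stood first, then WD LKO NAMPT, WD WT EV, WD LKO EV and chow WT EV. H2-Aa, H2-Ab1, H2-Eb1, H2-DMa, H2-DMb1 and Ciita had the same order of group means. This order rests in part on the high replicate 1 of WD LKO NAMPT: by medians, WD LKO NAMPT lay below WD WT EV for each of the 7 members, with 101 against 117 CPM for Cd74. Of the neighbours in this order, WD WT EV and WD LKO EV did not differ beyond their spread, and WD LKO NAMPT with WD WT EV and WD LKO EV with chow WT EV were not tested. The coefficient of variation within groups over all 7 members was 21.2% to 52.1% in the 3 EV groups and 45.3% to 64.9% in the 2 NAMPT groups. These ranges overlapped, since H2-DMa reached 52.1% in chow WT EV, against 45.7% in WD WT NAMPT and 49.1% in WD LKO NAMPT. A difference in spread was not tested.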

How the data were processed

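Libraries were made from liver RNA selected with oligo-dT, 1 per mouse, read as single ends. The authors aligned reads to GRCm38 (STAR 2.5.1a per the labels) and deposited whole-number counts per gene from featureCounts (1.4.6-p5 per the labels), with CPM and RPKM values that the authors derived from those counts. Only the counts were used. Whether counting used strand is not given in the sources used here. The treatment text of the labels names SIRT1 as vector insert, whereas the titles name NAMPT, and the titles were followed.

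Genes above 1 CPM in at least 2 libraries were kept, and 4 ribosomal RNA genes were removed, leaving 14065. TMM factors (edgeR 4.0.16) scaled all CPM shown. The main fit was voomWithQualityWeights in limma 3.58.1 (R 4.3.3), which the methods of the study also name. Fitting all 25 libraries with 1 mean per group was chosen here. The study's figure legend for its liver comparisons names an edgeR exact test and gives fewer mice per group. Moderated tests were adjusted by Benjamini-Hochberg over all genes and called at 0.05 or less. The procedure was tested on simulated counts. Group labels mark separate mice. The alternatives (edgeR quasi-likelihood test, DESeq2 1.42.0, size factors, filter, weights, groups, replicate block, 2 surrogate variables from sva 3.50.0, and leaving out each library) are given for the members in the closing section. Calls of list and marker genes are given from the main fit alone.

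The members, the lists and the naming rule were chosen with earlier results of these data known. All 7 members are named. From each list all genes are counted, and called ones are named with values, at most 4 per list and comparison by size of change, with listed genes at 0 in most libraries. For NAMPT in WT, Kupffer cell and conventional dendritic cell markers that did not pass are named too. The 10 most alike genes and the kept genes of the segment are also named.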

Additional observations from a re-analysis of the deposited data

Results flagged for a closer look

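Across 28 sets of values (7 genes in each of the 4 Western diet groups), 3 held a library far from the rest of its group by a gap test on log2(CPM + 0.5), where chance gives about 1 in 20. The sets share libraries and the genes moved together, so they are not independent and the count is only a description. H2-Ab1 stood at 18.8 CPM in WD WT NAMPT replicate 6, while the other 5 libraries of the group lay between 84.4 and 198 CPM. This library ranked between 22nd and 25th for each of the 7 genes, so its low level was not particular to H2-Ab1. Ciita stood at 1.24 CPM in WD WT EV replicate 6, against 3.26 to 4.78 CPM in the other 5, and at 1.12 CPM in WD LKO EV replicate 4, against 3.32 to 4.16 CPM in the other 4. In WD WT EV replicate 6 the ratio of Cd74 to Ciita per length was 239, the highest of the 25 libraries, with a median of 114 and a lowest value of 80.8. The low Ciita values rest on 27 and 29 counts.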

How the results depend on the processing

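For NAMPT in WT, 1 of 7 members and 13.4% of all genes were called in the limma fit. The edgeR quasi-likelihood test (3.04% of all genes), DESeq2 (8.49%), no filter (1.8%), no quality weights (1.37%), a fit of only the groups compared (4.64%) and 2 surrogate variables (0.562%) each called 0 members, library size alone called 4 (16.2%), and leaving out 1 library gave 0 to 6. For Western diet against chow (4 called, 22%), the edgeR quasi-likelihood test (9.4%), DESeq2 (12.4%), no filter (6.77%), no quality weights (8.54%) and 2 surrogate variables (23.2%) called 0 members, library size alone 1 (23%), upper-quartile factors 3 (22.5%) and only the groups compared 5 (18.3%), and leaving out 1 library gave 0 to 5. Between the NAMPT groups (0 called), leaving out 1 library gave 0 to 6. For the interaction DESeq2 gave the members no adjusted p-value. Replicate numbers do not pair animals, and the replicate block called 0 members for NAMPT in WT (6.29% of all genes) and 7 for the diet (27.3%); same-numbered libraries of the WT groups correlated between -0.23 and 0.42.

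Only 2 surrogate variables reversed directions among the fits of all libraries. For NAMPT in WT the log2 fold changes became -0.15 (H2-Aa), -0.012 (H2-Eb1), -0.21 (H2-DMa), -0.17 (Cd74) and -0.034 (Ciita). Between the NAMPT groups they became 0.11 (H2-Ab1), 0.067 (H2-Eb1), 0.22 (H2-DMa), 0.17 (H2-DMb1), 0.10 (Cd74) and 0.23 (Ciita). For the interaction they became 0.32 (H2-Aa), 0.42 (H2-Ab1), 0.40 (H2-Eb1), 0.64 (H2-DMa), 0.59 (H2-DMb1), 0.44 (Cd74) and 0.48 (Ciita). The cause was not tested.

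Leaving out 1 library at a time, the values for NAMPT in LKO ran from -0.054 to 0.395 (H2-Aa), -0.072 to 0.522 (H2-Ab1) and -0.007 to 0.505 (H2-Eb1), that of Ciita for LKO EV against WT EV from -0.438 to 0.079, and the interaction of H2-DMa from -0.409 to 0.033; other directions held. The correlations of Ciita with the other 6 members kept their direction and call under all 3 alternatives. Ciita, H2-DMa and H2-DMb1 had under 100 counts in some libraries, which limits their precision.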
